A study of Mus musculus with 2 samples.

Results

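Cycling ductal cells are the dividing cells of the pancreatic duct epithelium. They were taken here as the barcodes of 2 single-cell libraries that passed a rule on detected genes and marker transcripts. The rule asked for at least 500 detected genes and at most 10% mitochondrial UMIs (unique molecular identifiers, 1 for each captured transcript). The ductal genes Spp1, Sox9, Ambp, Dcdc2a, Cldn3 and Pdzk1ip1 had to hold at least 0.1% of a barcode's UMIs, and the cycling genes Top2a, Mki67, Cenpf, Birc5 and Ube2c at least 3 UMIs. Barcodes with acinar enzyme genes at 1.5% of UMIs or more, or with endocrine, collagen, mesothelial or myeloid transcripts above small limits, were left out. Of 8765 barcodes, 286 met the rule, 144 of 4779 in the library labelled knockout and 142 of 3986 in the control library. The cells were thus chosen by measured values, and the levels of the 11 rule genes describe the choice and support nothing.

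Each library came from 1 pancreas of the strain C57BL/6 at embryonic day 18.5. The first group carries the label knockout and is called Dpy30∆P in the design, and the second carries the label control. Neither the deleted stretch of Dpy30, nor the cells in which it was deleted, nor the alleles of the control are given in the sources used here. Both pancreata were dissociated with trypsin and loaded on the 10x Chromium 3' v2 platform. With 1 library per group, no difference below has a replicate check and no test was run. Every interval is a 95% interval that covers counting error only. The libraries differed in sex as well as in label: Xist, expressed from the inactive X chromosome, had 48052 UMIs in the library labelled knockout and 1 in the control library, and the Y-linked gene Ddx3y had 0 UMIs in the library labelled knockout and 1624 in the control library. Sex and genotype cannot be told apart.

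Duct cells of the late embryonic pancreas line the branching tree that carries digestive enzymes, and the embryonic ducts descend from trunk progenitors that also give rise to endocrine cells. A dividing cell copies its DNA in S phase with replication enzymes under E2F control. It then builds up cyclin B, mitotic kinases and spindle proteins in G2 and M phase, many of them switched on through CCAAT boxes and the cell cycle homology region (CHR). DPY30 is a core subunit of the TrxG complexes, the enzymes that methylate lysine 4 of histone H3 at active genes.

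The cells labelled by the rule carried the transcripts of dividing duct epithelium in both libraries. The 10 ductal markers that the rule did not use, among them Krt8, Krt18 and Epcam, were all detected, at a summed 6494 CPM (UMIs scaled to the total of the class in that library) in the library labelled knockout and 9259 CPM in the control library. Clu alone was at 2758 CPM in knockout-labelled cells and 4154 CPM in control cells, while Tspan8 had only 5 and 15 UMIs. The duct genes Cftr and Sctr, not among the 10, were nearly absent, with 2 and 2 UMIs in knockout-labelled cells and 3 and 6 in control cells. Markers of some other cell types were low; the rule itself limited collagen, mesothelial, myeloid, endocrine and acinar transcripts, so their levels are a description, while endothelial markers were not in it. The 7 mesenchymal markers summed to 29.7 CPM in knockout-labelled cells and 34.3 CPM in control cells, the 6 myeloid markers to 9.35 CPM in knockout-labelled cells and 7.83 CPM in control cells, and the 6 endothelial markers to 27.2 CPM in knockout-labelled cells and 41.1 CPM in control cells. Among these, C1qb was at 0 in both libraries, Kdr was at 0 in the library labelled knockout and Tyrobp in the control library. Acinar and red cell markers were higher, at 2184 and 2671 CPM in the library labelled knockout and at 1234 and 7135 CPM in the control library. The 10 endocrine markers summed to 82.4 CPM in the library labelled knockout and to 607 CPM in the control library. Of these, the insulin gene Ins2 was at 53.1 CPM in knockout-labelled cells and 337 CPM in control cells. In mesenchymal cells it was at 65.4 CPM in the library labelled knockout and 406 CPM in the control library.

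A few barcodes stood apart. Haemoglobin genes held 17.3% of the UMIs of 1 knockout-labelled cell, and between 1.77% and 49.3% of those of 6 control cells. Another control cell held 207 UMIs of the hormone gene Sst. In the library labelled knockout, 7 cells held 5 to 38 UMIs of Rbpjl, a transcription factor gene of acinar cells, given with their values after the other genes. No barcode was shared between the cycling ductal cells of the libraries, while 27 were shared among all barcodes. Depth was alike, with a median of 13864.5 UMIs (994 to 44687) in knockout-labelled cells and 13035.5 (1635 to 43275) in control cells. The median cell had 3740.5 detected genes in the library labelled knockout and 3581 in the control library.

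A larger share of the duct cells was cycling in the library labelled knockout. Of 389 duct cells there, 144 met the cycling limit, 37.0% (Clopper-Pearson interval 32.2 to 42.0), against 142 of 530 in the control library, 26.8% (23.1 to 30.8). The ratio of these shares was 1.38 (Katz interval 1.14 to 1.67). With each cell thinned to 2000 UMIs it was 1.22 (1.00 to 1.48) at a limit of at least 1 cycling UMI and 1.25 (0.974 to 1.59) at a limit of at least 2, where the interval includes 1. The limit of 3 UMIs cut through few cells: 15 knockout-labelled and 18 control duct cells had 2 cycling UMIs, and 14 knockout-labelled and 12 control duct cells had 3. The median cycling duct cell held 18 such UMIs in each library. Duct cells themselves were a smaller share of all kept cells in the library labelled knockout, 11.9% (389 of 3257) against 20.1% (530 of 2633) in the control library, a ratio of 0.593 (0.526 to 0.669). Cycling ductal cells were therefore 4.42% of kept cells in the library labelled knockout and 5.39% in the control library, a ratio of 0.820 (0.654 to 1.03) whose interval includes 1. Both shares of kept cells depend on the acinar limit of the rule. Before it, 654 knockout-labelled and 625 control barcodes met the ductal limit, and after it 462 and 594 were left. Acinar cells were 830 of the kept cells in the library labelled knockout and 126 in the control library.

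The cycling share of neighbouring cell types was closer between the libraries. Among acinar cells it was 15.8% (131 of 830) in the library labelled knockout and 15.9% (20 of 126) in the control library, a ratio of 0.994 (0.646 to 1.53). Among mesenchymal cells it was 17.7% (218 of 1231) in the library labelled knockout and 17.0% (167 of 983) in the control library, a ratio of 1.04 (0.868 to 1.25). The intervals for acinar and for mesenchymal cells both overlap that for duct cells, and the differences between these ratios were not tested.

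Within the cycling ductal cells, phase was read from a list of 43 S phase genes and a list of 48 G2 and M phase genes, neither of which holds the cycling genes of the rule. The S phase list took 0.0324% to 0.976% of a cell's UMIs in the library labelled knockout, with a median of 0.220%, and 0.0168% to 0.917% in the control library, with a median of 0.161%. The G2 and M phase list took 0.0925% to 3.02% with a median of 0.555% in knockout-labelled cells, and 0.0670% to 2.44% with a median of 0.828% in control cells. The ranges of both measures overlapped almost wholly, and the median knockout-labelled cell lay towards S phase and away from G2 and M phase. Cells with more S phase than G2 and M phase UMIs, called S-rich, were 36 of 144 in the library labelled knockout (25.0%, 18.2 to 32.9) and 26 of 142 in the control library (18.3%, 12.3 to 25.7). Their ratio was 1.37 (0.872 to 2.14), and this interval, which covers counting error only, includes 1. With 1 library per group, a shift between knockout and control could not be tested at any number of cells.

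**Figure D1:**
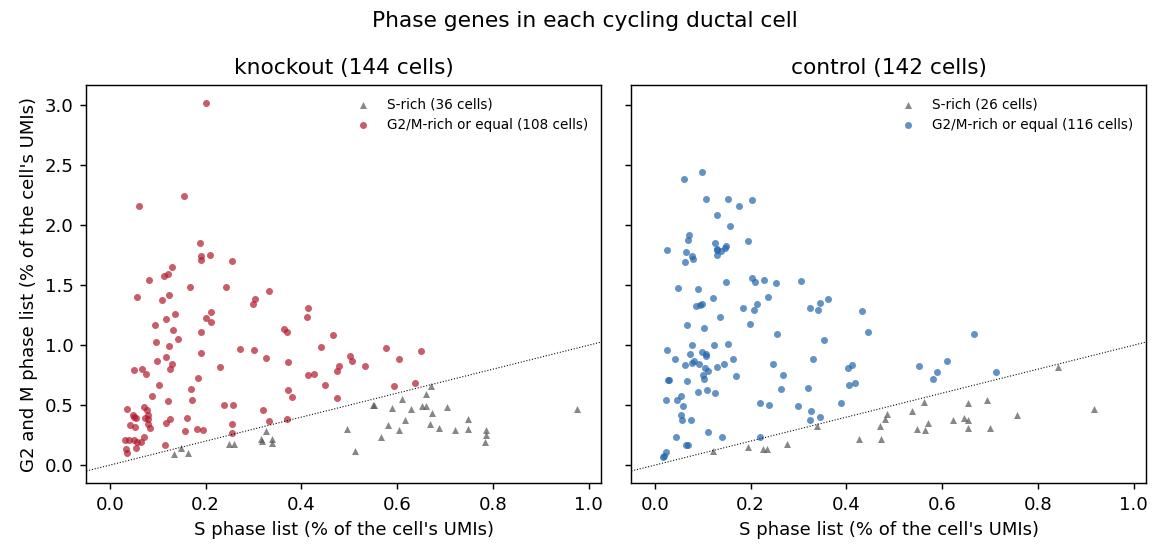
Each point is 1 cycling ductal cell, with the S phase list on the x axis and the G2 and M phase list on the y axis, both in % of the cell's UMIs, for the library labelled knockout (left, 144 cells) and the control library (right, 142 cells). Triangles under the dotted line of equal values are the S-rich cells, 36 at left and 26 at right, and the median G2 and M phase value is 0.555% at left and 0.828% at right.

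Genes of G2 and M phase were lower in the knockout-labelled cycling ductal cells. All 48 genes of the list were measured (at least 20 UMIs in the cycling ductal cells of both libraries together), 42 of them were lower, and 13 were lower by at least 1.5-fold. The median log2 ratio of the list was -0.29. Over all 10037 measured genes the median was 0.01, with 49.1% lower by any size and 8.35% lower by at least 1.5-fold. The whole list summed to 6826 CPM in the library labelled knockout and 8876 CPM in the control library.

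Cdc20 (ENSMUSG00000006398), the activator of the ubiquitin ligase that starts anaphase, stood at 144 CPM in knockout-labelled cells and 302 CPM in control cells, a ratio of 0.479 (0.418 to 0.548). It had UMIs in 91 cells of each library, and no single cell held more than 5.29% of them. Of the cyclin genes whose products pair with CDK1, Ccnb1 was at 135 CPM in knockout-labelled cells and 236 CPM in control cells (0.573, 0.495 to 0.661). Ccnb2 was at 223 CPM in knockout-labelled cells and 373 CPM in control cells (0.597, 0.533 to 0.668). All of these genes were lower with intervals under 1. Cdk1 itself, the mitotic kinase, was at 204 CPM in knockout-labelled cells and 318 CPM in control cells (0.643, 0.570 to 0.725). Plk1, a kinase of mitotic entry and the spindle, was at 56.9 CPM in knockout-labelled cells and 101 CPM in control cells (0.562, 0.449 to 0.701). Nek2, a kinase of centrosome separation, had a log2 ratio of -0.88. Cenpa, the histone H3 variant of the centromere, had 204 CPM in knockout-labelled cells and 340 CPM in control cells (0.599, 0.532 to 0.674).

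Some abundant genes of the list differed less. Hmgb2, a chromatin protein, had 1515 CPM in knockout-labelled cells and 1864 CPM in control cells, a ratio of 0.813 (0.776 to 0.851). Cks2, a small partner of CDK1, had 387 CPM in knockout-labelled cells and 514 CPM in control cells, and its relative Cks1b had 371 CPM in knockout-labelled cells and 374 CPM in control cells. The spindle, kinetochore and cytokinesis list, which shares genes with the G2 and M phase list, had a median log2 ratio of -0.27. Of its 51 measured genes, 45 were lower and 11 by at least 1.5-fold, against 49.1% and 8.35% of all genes. Its furthest gene was Cep55, which acts when daughter cells are cut apart, at 20.4 CPM in knockout-labelled cells and 44.6 CPM in control cells (0.458, 0.316 to 0.656). The tubulin genes Tubb5, Tuba1b and Tubb4b of that list had ratios of 0.798, 0.731 and 0.636.

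The promoters of 4 genes are shown as examples of where the searched elements lie, and were picked after the matches were seen. They are printed as the 150 bases before the start of the RefSeq entry, in the direction of the gene, on build GRCm38.p6, with CCAAT boxes (CCAAT, or ATTGG on the other strand), CHR elements (TTTGAA, or TTCAAA) and E2F elements (TTCCCGC, or GCGGGAA) in capitals. Cdc20 at chr4:118437344-118437493 (minus strand), Plk1 at chr7:122159285-122159434 (plus strand) and Ccnb2 at chr9:70421555-70421704 (minus strand) are G2 and M phase genes that were lower in the library labelled knockout. Rpa2 at chr4:132768210-132768359 (plus strand), a subunit of the protein that coats single-stranded DNA, is an S phase gene that was higher. Of the 4, Cdc20 alone holds a CHR element in these bases, and Rpa2 holds CCAAT boxes as the G2 and M phase genes do.
Cdc20: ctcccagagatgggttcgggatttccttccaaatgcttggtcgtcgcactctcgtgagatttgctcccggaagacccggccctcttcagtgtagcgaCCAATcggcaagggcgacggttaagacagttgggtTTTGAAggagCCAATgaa
Plk1: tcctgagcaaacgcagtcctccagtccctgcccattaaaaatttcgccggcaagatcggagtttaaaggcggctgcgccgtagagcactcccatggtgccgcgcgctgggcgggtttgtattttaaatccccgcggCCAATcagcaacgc
Ccnb2: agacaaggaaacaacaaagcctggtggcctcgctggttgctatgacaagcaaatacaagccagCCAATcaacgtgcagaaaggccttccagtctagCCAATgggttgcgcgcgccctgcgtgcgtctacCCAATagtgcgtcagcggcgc
Rpa2: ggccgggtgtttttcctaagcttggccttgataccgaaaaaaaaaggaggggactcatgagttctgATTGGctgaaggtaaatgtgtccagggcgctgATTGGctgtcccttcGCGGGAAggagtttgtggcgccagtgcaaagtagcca

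Of the 48 G2 and M phase genes, 42 matched a RefSeq promoter by symbol, with 47 entries. Over the 250 bases before the start, 74.5% of these entries held a CCAAT box, 38.3% a CHR element and 31.9% both, on either strand. Of all 32851 promoter entries, 33.9% held a CCAAT box, 16.0% a CHR element and 5.55% both. Each motif was searched apart from the others, so a base may count for more than 1, and a match describes letters only. Of the 43 S phase genes 31 matched, too few for a valid comparison over that list. Of their 34 entries 23 held a CCAAT box, so the box is not shown to be particular to the G2 and M phase list.

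S phase genes lay the other way, by less. Of 43 measured genes, 31 were higher in the library labelled knockout, against 50.9% of all genes, and 3 were higher by at least 1.5-fold, against 8.18% of all genes. The median log2 ratio was 0.21, and the list summed to 2782 CPM in the library labelled knockout and 2508 CPM in the control library. Ung, which removes uracil from DNA, had 57.8 CPM in knockout-labelled cells and 33.3 CPM in control cells, a ratio of 1.74 (1.29 to 2.36). Brip1, a DNA repair helicase, had 24.6 CPM in knockout-labelled cells and 11.8 CPM in control cells (2.10, 1.28 to 3.53). Rpa2, whose promoter holds the E2F element, had 70.1 CPM in knockout-labelled cells and 46.0 CPM in control cells (1.52, 1.18 to 1.98). Pcna, the sliding clamp of the replication fork, stood against the list at 91.3 CPM in knockout-labelled cells and 116 CPM in control cells (0.791, 0.654 to 0.955). The most abundant gene, Gmnn, an inhibitor of origin licensing, had a ratio of 1.10 (0.953 to 1.28). The list of replication origin and fork genes had a median log2 ratio of 0.13 and that of nucleotide synthesis genes 0.03. When each cell was thinned to 2000 UMIs, the S phase median was 0.53 over the 27 genes still measured.

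Genes that act before S phase were mixed. The list of G1 cyclins, E2F factors and their CDK partners had a median log2 ratio of 0.12. Of its genes, 18 of 29 were higher, against 50.9% of all genes. Its furthest genes were scarce: Ccne1, the cyclin of S phase entry, had 30 UMIs in knockout-labelled cells and 9 in control cells, a CPM ratio of 2.89 (1.34 to 6.93), and E2f2 had 16 UMIs in knockout-labelled cells and 4 in control cells (3.47, 1.12 to 14.3). Ccnd1, the abundant D cyclin, had a ratio of 1.11 (1.02 to 1.20). The CDK inhibitors Cdkn1a and Cdkn1b were at 65.0 and 26.8 CPM in knockout-labelled cells and at 93.0 and 44.6 CPM in control cells. The list of CDK inhibitors and p53 targets as a whole had a median of -0.03.

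The same phase lists were set beside those of other dividing and resting cells. In cycling mesenchymal cells the G2 and M phase median was 0.08, with 0 of 48 genes lower and 0 higher by at least 1.5-fold, against 8.9% and 8.23% of all genes, and the S phase median was -0.03. In non-cycling ductal cells, where 27 of the 48 G2 and M phase genes were measured, the G2 and M phase median was 0.06 and the S phase median 0.13. Cycling acinar cells, of which the control library held 20, had a G2 and M phase median of 0.05 and an S phase median of -0.41. There 23 of 47 measured G2 and M phase genes were lower and 24 higher. Cdc20 by itself had a ratio of 0.486 (0.347 to 0.694) in cycling acinar cells and of 1.35 (1.135 to 1.61) in cycling mesenchymal cells.

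**Figure D2:**
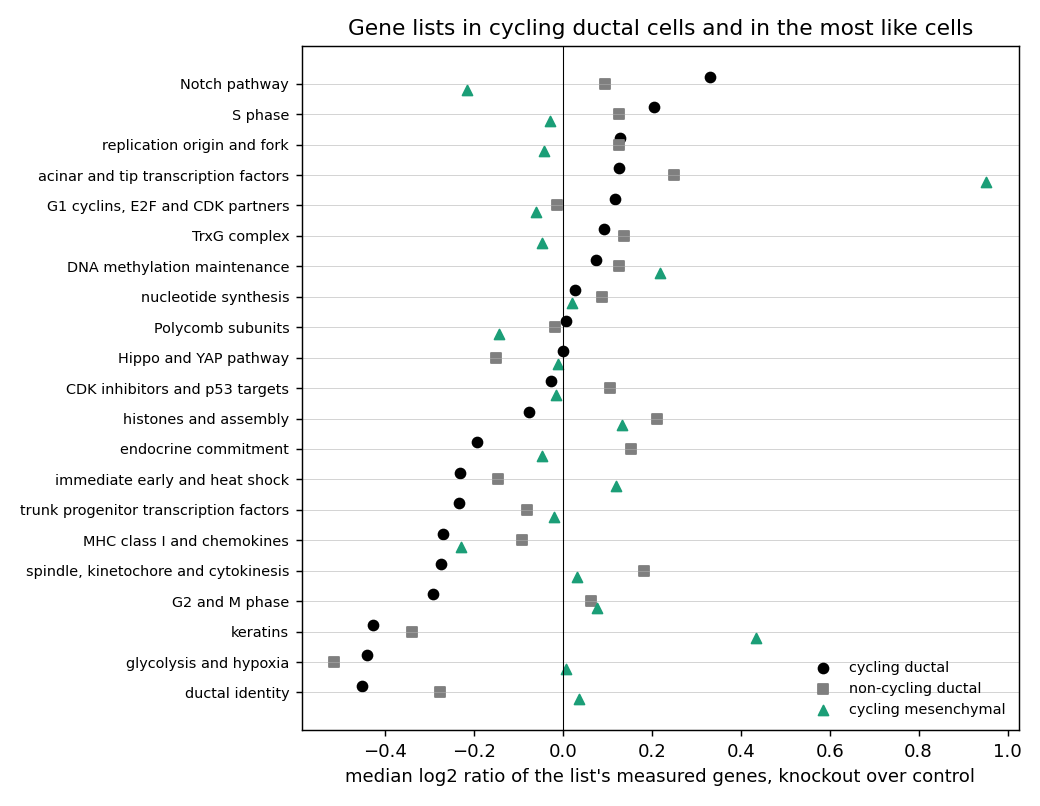
Each row is a gene list and each symbol the median log2 ratio, knockout over control, of its measured genes in cycling ductal (circle), non-cycling ductal (square) and cycling mesenchymal cells (triangle). The G2 and M phase list lies at -0.29 in cycling ductal cells, 0.06 in non-cycling ductal cells and 0.08 in cycling mesenchymal cells, and the ductal identity list at -0.45, -0.28 and 0.04.

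The lower G2 and M phase genes were also seen among the cells that are not S-rich, which number 108 in the library labelled knockout and 116 in the control library. There the list's median log2 ratio was -0.26 with 42 of 48 genes lower, against 4533 of all 9476 genes measured there. Cdc20 had 329 UMIs in knockout-labelled cells and 612 in control cells, a CPM ratio of 0.495 (0.431 to 0.567). In S-rich cells, where 27 of the 48 genes were measured, the median was 0.07. This split used the same genes and is a description. The list's median moved to -0.18 when cells with acinar enzyme genes at 0.5% of UMIs or more were left out, and to -0.22 without the 7 Rbpjl-rich cells.

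Duct genes were lower in the cycling ductal cells of the library labelled knockout. Of 42 genes of a ductal identity list, which leaves out the rule's own 6, 36 were measured. Of these, 31 were lower and 12 by at least 1.5-fold, against 49.1% and 8.35% of all genes. The median log2 ratio was -0.45. The list summed to 13405 CPM in the library labelled knockout and 18238 CPM in the control library. Per cell, the list took 0.352% to 2.79% of UMIs with a median of 1.39% in knockout-labelled cells, and 1.06% to 3.13% with a median of 1.78% in control cells, so the ranges overlapped and the lowest cells were knockout-labelled.

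Krt19, a keratin of simple duct epithelium, was at 108 CPM in knockout-labelled cells and 207 CPM in control cells, a ratio of 0.524 (0.447 to 0.614). Clu, a secreted chaperone, was the most abundant gene of the list, at 2758 CPM in knockout-labelled cells and 4154 CPM in control cells (0.664, 0.643 to 0.686). Krt18 and Krt8, the paired keratins of simple epithelium, had ratios of 0.737 and 0.743, and Epcam, an epithelial adhesion protein, 0.712 (0.656 to 0.773). Anxa3, a membrane-binding annexin, lay furthest with 16 UMIs in knockout-labelled cells and 49 in control cells (0.283, 0.150 to 0.507). The 5 genes that were not lower included Pkd2, a channel of the primary cilium, with a log2 ratio of 0.44.

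Among the rule's own duct genes, given as a description, Spp1, a secreted phosphoprotein, had 5108 CPM in knockout-labelled cells and 7914 CPM in control cells. Pdzk1ip1 had 186 CPM in knockout-labelled cells and 364 CPM in control cells, and Ambp 646 CPM in knockout-labelled cells and 1074 CPM in control cells. Sox9, the transcription factor that marks trunk and duct cells, was nearer, at 572 CPM in knockout-labelled cells and 621 CPM in control cells (0.920, 0.852 to 0.995). Of the trunk progenitor transcription factors, 16 of 24 measured were lower, against 49.1% of all genes, with a median of -0.23. Nkx6-1, a factor of trunk progenitors, was at 50.6 CPM in knockout-labelled cells and 34.3 CPM in control cells (1.48, 1.09 to 2.01).

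Non-cycling ductal cells showed lower duct genes too. There 31 of 39 measured genes of the ductal identity list were lower, against 49.4% of all genes, with a median of -0.28. By at least 1.5-fold, 3 were lower against 7.34% of all genes, and 1 was higher against 6.44% of all genes. Krt19 had 217 CPM in non-cycling knockout-labelled cells and 322 CPM in non-cycling control cells, a ratio of 0.673. Within each library, cycling ductal cells held less of the list than non-cycling ones. In the library labelled knockout 31 of 37 genes were lower, where 46.6% of all genes were. In the control library it was 24 of 38, where 47.7% of all genes were. The rule split these cells, so the rest is a description: 42 of 43 S phase genes were higher in cycling than in non-cycling ductal cells of the library labelled knockout, where 53.4% of all genes were, and 40 of 43 in the control library, where 52.3% were. In cycling mesenchymal cells the list, there made up of shared epithelial and adhesion genes at low level, had a median of 0.04. With the cycling ductal cells split by phase, the list's median was -0.48 in S-rich cells and -0.43 in the others. This split is a description, and the part of phase in the difference was not tested.

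**Figure D3:**
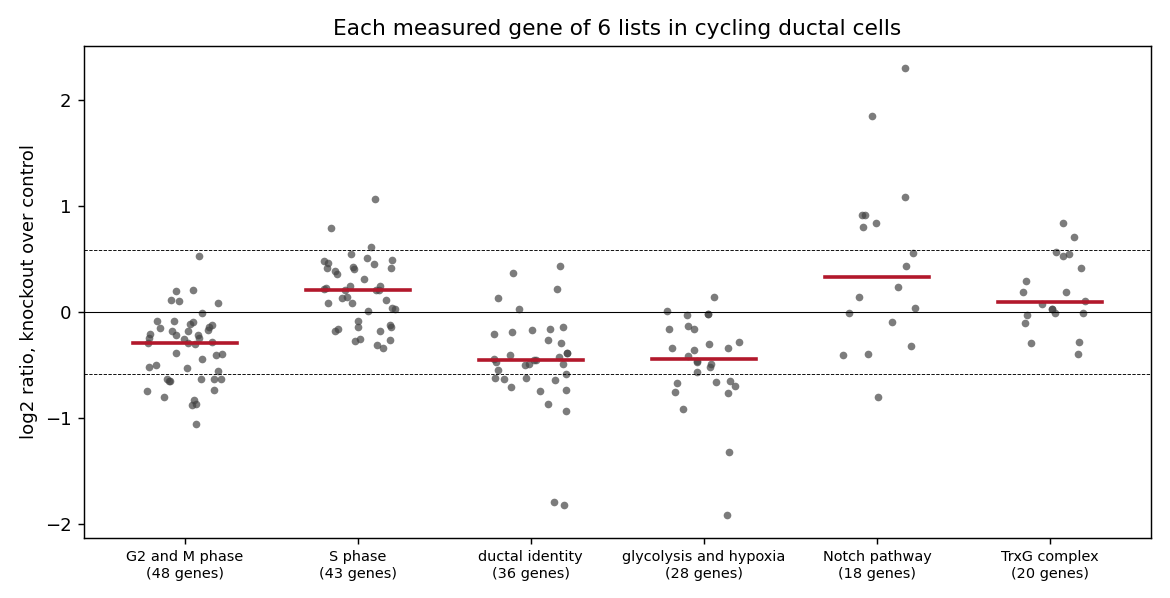
Each point is 1 measured gene of a list, with its log2 ratio of knockout over control in cycling ductal cells on the y axis; red bars are the medians and dashed lines mark 1.5-fold. The G2 and M phase list lies mostly under 0 with a median of -0.29, the S phase list has a median of 0.21, and the ductal identity list a median of -0.45 with 5 genes above 0.

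Genes of glycolysis and the response to low oxygen were lower in nearly the whole list. Of 28 measured genes, 26 were lower and 9 by at least 1.5-fold, against 49.1% and 8.35% of all genes. The median log2 ratio was -0.44. Slc2a1, the glucose transporter GLUT1, was at 38.7 CPM in knockout-labelled cells and 73.0 CPM in control cells (0.530, 0.404 to 0.692). Vegfa, the vessel growth factor, was at 46.7 CPM in knockout-labelled cells and 79.3 CPM in control cells (0.589, 0.458 to 0.755). Egln3, an oxygen-sensing hydroxylase, was at 17.4 CPM in knockout-labelled cells and 43.6 CPM in control cells (0.400, 0.269 to 0.585). Ldha, lactate dehydrogenase, was at 608 CPM in knockout-labelled cells and 855 CPM in control cells, while Mif and Pkm had log2 ratios of -0.03 and -0.02. The list's median was -0.51 in non-cycling ductal cells, -0.45 in cycling acinar cells and 0.01 in cycling mesenchymal cells. Within the cycling ductal cells it was -0.09 over 20 measured genes in S-rich cells and -0.52 over 27 in the others.

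The Notch pathway, by which neighbouring cells hold one another in the duct or progenitor state, was uneven. Of 18 measured genes 12 were higher and 7 by at least 1.5-fold, against 50.9% and 8.18% of all genes. The median was 0.33. Jag1, a ligand, was at 25.9 CPM in knockout-labelled cells and 12.2 CPM in control cells (2.12, 1.31 to 3.52). Dlk1, a non-canonical ligand, was at 382 CPM in knockout-labelled cells and 219 CPM in control cells (1.74, 1.55 to 1.96). The receptors Notch1 and Notch2 had log2 ratios of -0.10 and -0.32. Targets went apart: Hes1, the most abundant, was at 1108 CPM in knockout-labelled cells and 1469 CPM in control cells (0.754, 0.716 to 0.795). Nrarp, a feedback inhibitor, was at 28.0 CPM in knockout-labelled cells and 15.7 CPM in control cells (1.79, 1.16 to 2.82), and Hey1 had 29 UMIs in knockout-labelled cells and 7 in control cells (3.60, 1.54 to 9.72). In non-cycling ductal cells Hes1 had a ratio of 0.745 and Dlk1 of 1.78.

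Dpy30, the gene named in the design, was not lower in the library labelled knockout. Its 3' tags stood at 198 CPM in cycling ductal cells of that library and 163 CPM in those of the control library, a ratio of 1.22 (1.06 to 1.41), and in non-cycling ductal cells at 126 CPM in the library labelled knockout and 114 CPM in the control library. A tag outside the deleted stretch checks nothing, and that stretch is not given in the sources used here. In both libraries cycling cells held more Dpy30 than non-cycling ones, by 1.58-fold (1.37 to 1.83) in the library labelled knockout and 1.43-fold (1.23 to 1.66) in the control library. The TrxG complex list had a median of 0.09, with 13 of 20 genes higher and 2 by at least 1.5-fold. Of all genes, 50.9% were higher and 8.18% by at least 1.5-fold. After thinning to 2000 UMIs the list's median was -0.04 over 9 genes. Kdm6a, an X-linked demethylase gene that escapes X inactivation, was at 29.7 CPM in knockout-labelled cells and 16.6 CPM in control cells (1.79, 1.17 to 2.78), a difference in which sex and genotype cannot be told apart. Kmt2a and Kmt2b, methyltransferases of the complexes, had log2 ratios of 0.11 and -0.01, and Ash2l, which binds DPY30, -0.28. Polycomb subunits had a median of 0.01.

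**Figure D4:**
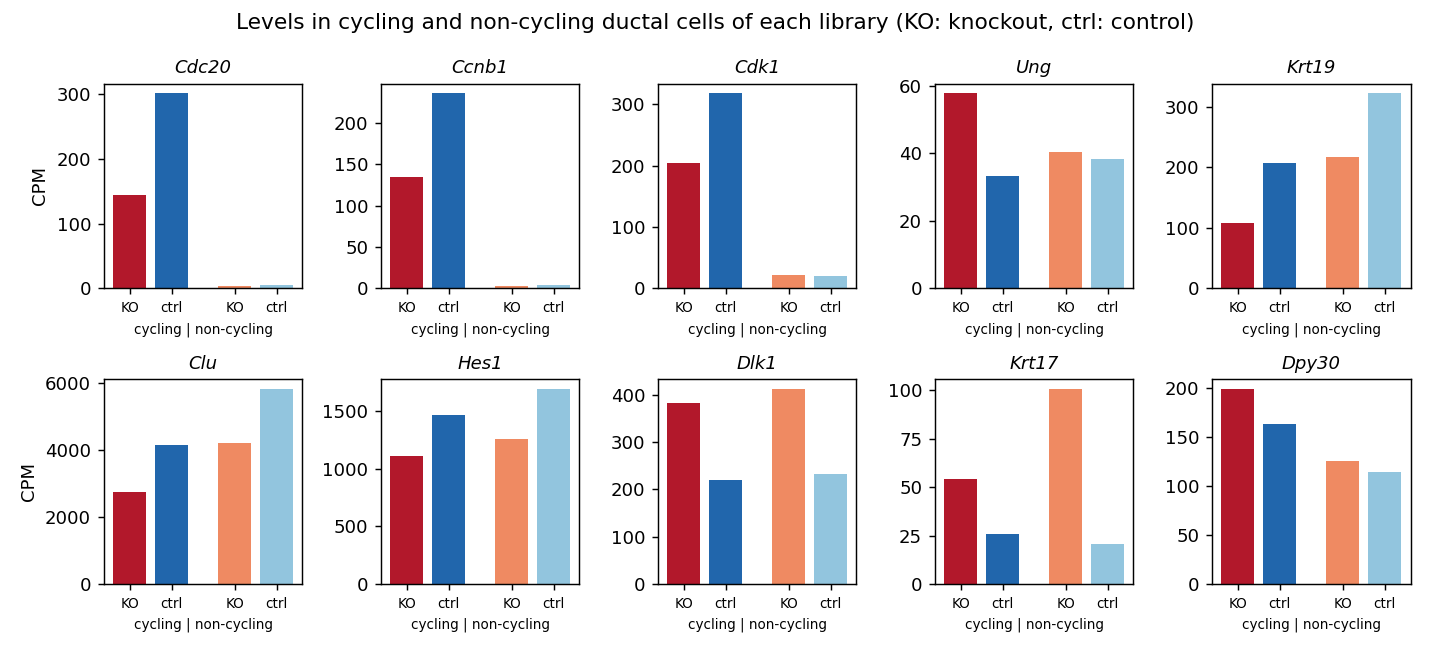
Bars give the level of 10 genes in CPM in cycling (left pair) and non-cycling (right pair) ductal cells, with the library labelled knockout left of the control library in each pair; each bar is 1 library. Cdc20 and Ccnb1 are near 0 in non-cycling cells, and Cdc20, Ccnb1 and Cdk1 are lower in the library labelled knockout among cycling cells, where Cdc20 has 144 CPM in that library and 302 CPM in the control library, while Dlk1 and Krt17 are higher in that library in both pairs.

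Genes furthest higher in the cycling ductal cells of the library labelled knockout, by the interval bound nearest 1, were led by Cd320, the receptor that takes up vitamin B12 carrier, at 37.4 CPM in knockout-labelled cells and 14.2 CPM in control cells (2.63, 1.71 to 4.16). The haem-binding protein gene Hebp1 followed at 78.6 CPM in knockout-labelled cells and 36.2 CPM in control cells (2.17, 1.65 to 2.88), and then Lrp6, a Wnt co-receptor, at 64.6 CPM in knockout-labelled cells and 31.8 CPM in control cells (2.03, 1.51 to 2.76). The other 9 were Mtfr1l, Wfdc3, Commd4, Rexo2, Gcsh, Krt10, Tpd52l1, Ppib and Morn2, with ratios of 1.44 to 2.04. Ppib, a folding enzyme of the endoplasmic reticulum, was the most abundant, at 617 CPM in knockout-labelled cells and 430 CPM in control cells. Some of these genes were higher in mesenchymal cells too. There the ratio was 1.33 for Cd320, 1.40 for Hebp1, 1.35 for Lrp6 and 1.19 for Ppib, all with intervals above 1. Wfdc3, Commd4, Rexo2 and Tpd52l1 had mesenchymal ratios under 1. In non-cycling ductal cells Hebp1 had a ratio of 2.08 (1.73 to 2.52), so its difference is not particular to cycling cells. For Cd320, Commd4 and Krt10 the ratio was larger in cycling than in non-cycling ductal cells, by 1.98-fold (1.19 to 3.29), 1.66-fold (1.13 to 2.45) and 2.05-fold (1.24 to 3.41). The genes were picked by their cycling ductal ratios, which this comparison uses again. Its intervals do not allow for that choice, so it is a description.

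The 12 furthest lower among genes that passed the filters were led by Tuba1c, an alpha tubulin, with Cdc20 next. Tuba1c was at 107 CPM in knockout-labelled cells and 234 CPM in control cells (0.460, 0.394 to 0.537). The others were Sod3, Pdzk1ip1, Egln3, Selenbp1, Cox6b2, Anxa5, Kifc3, Kpna2, Ambp and Capg, with ratios of 0.364 to 0.601. Sod3, an extracellular superoxide dismutase, was at 14.4 CPM in knockout-labelled cells and 39.7 CPM in control cells. Kpna2, a nuclear import receptor, was at 37.4 CPM in knockout-labelled cells and 76.4 CPM in control cells. The ratio was smaller in cycling than in non-cycling ductal cells, with an interval under 1, for 7 of the 12. These genes too were picked by the cycling ductal ratios that enter the comparison, so it is a description. The factor was 0.523 (0.328 to 0.833) for Sod3, 0.543 (0.393 to 0.750) for Cox6b2, 0.692 (0.545 to 0.880) for Capg and 0.702 (0.536 to 0.919) for Tuba1c. It was 0.762 (0.600 to 0.967) for Kifc3, 0.804 (0.680 to 0.951) for Anxa5 and 0.830 (0.764 to 0.901) for Ambp, a gene of the rule. None of the 24 genes kept its place when the filters on genes of other cell types and on genes that move in mesenchyme were dropped. Without the filters, the 12 furthest higher included the acinar gene Cela1, with a ratio of 19.0 (14.1 to 26.1). The 12 furthest lower then included Ins2 (0.158, 0.129 to 0.191). They also included the sterol synthesis genes Hmgcs1 (0.329, 0.252 to 0.427) and Fdps (0.346, 0.273 to 0.437).

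Acinar genes were uneven between the cells. Rbpjl, a partner of the acinar factor Ptf1a, had 122 UMIs in knockout-labelled cycling ductal cells and 7 in control cells, and Ptf1a had 29 UMIs in knockout-labelled cells and 1 in control cells. They were not spread evenly: 16 knockout-labelled cells had an Rbpjl UMI, 11.1% (6.49 to 17.4), and 7 of them held 112 of the 122 UMIs. Non-cycling ductal cells had an Rbpjl UMI in 26 of 245 cells (10.6%) in the library labelled knockout and in 15 of 388 (3.87%) in the control library. In the former, 9 cells held 78 of the 99 UMIs. Ptf1a had 48 UMIs in non-cycling knockout-labelled cells and 1 in non-cycling control cells, so the pattern is not particular to cycling cells. Mesenchymal cells, which do not use these genes, had an Rbpjl UMI in 2.52% of cells in the library labelled knockout, at a median of 5561 UMIs per cell, and in 0.712% in the control library, at a median of 5659. Cycling acinar cells had one in 125 of 131 cells in the library labelled knockout and 19 of 20 in the control library.

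The 7 Rbpjl-rich cells, set apart by at least 3 Rbpjl UMIs after the values were seen, were deep, with a median of 39177 UMIs, and the 5 acinar enzyme genes took a median of 1.06% of their UMIs, against 0.0650% in the other 137 knockout-labelled cells. Spp1 stood at 1327 CPM in the 7 cells and 5497 CPM in the other 137. Without them, Rbpjl had 10 UMIs in knockout-labelled cells and 7 in control cells, and the acinar enzyme list a median log2 ratio of -0.06 in place of 0.87. Cela1, an acinar elastase, was at 427 CPM in all knockout-labelled cells and 87.2 CPM without the 7 cells, against 22.5 CPM in control cells. In mesenchymal cells, which do not make it, Cela1 was at 88.6 CPM in the library labelled knockout and 8.95 CPM in the control library. Scrublet, a doublet caller, marked 1 of the cycling ductal cells in the library labelled knockout and 0 in the control library, and whether a barcode held more than 1 cell was not tested further.

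**Figure D5:**
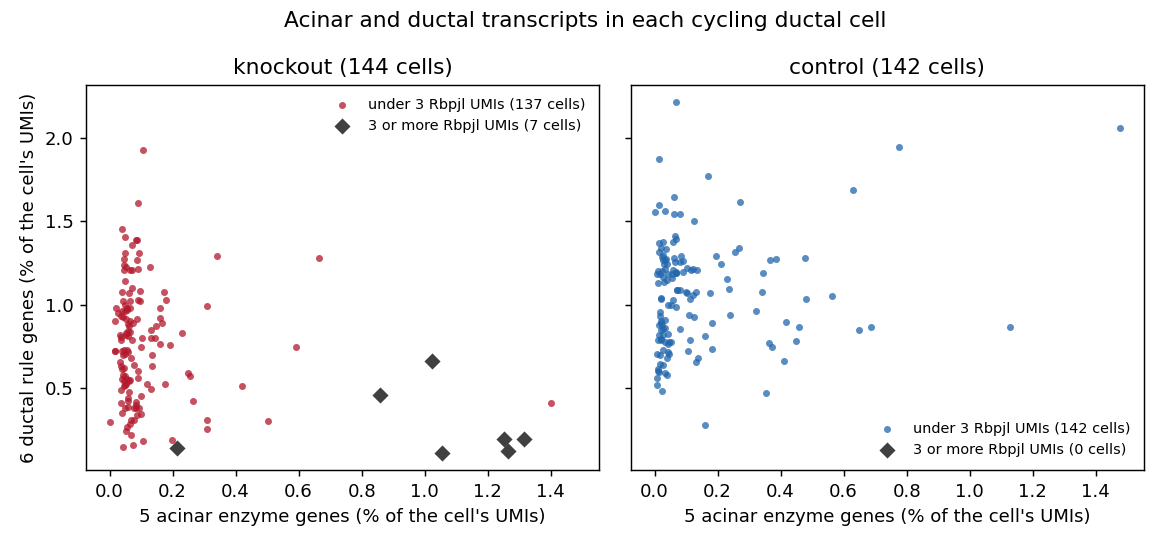
Each point is 1 cycling ductal cell, with the 5 acinar enzyme genes of the rule on the x axis and its 6 ductal genes on the y axis, both in % of the cell's UMIs, for the library labelled knockout (left) and the control library (right). The 7 cells with 3 or more Rbpjl UMIs (black diamonds, left) have a median of 1.06% acinar enzyme UMIs, and the control library has 0 such cells.

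Among other genes, Krt17, a keratin of basal and stressed epithelium, was at 54.0 CPM in knockout-labelled cycling ductal cells and 26.0 CPM in control cells (a ratio of 2.08), and in non-cycling ones at 101 CPM in the library labelled knockout and 20.4 CPM in the control library. Its UMIs lay in few cells. Among cycling ductal cells, 16 knockout-labelled cells held 98 of 127 UMIs, and 8 control cells held 41 of 53. The list of class I antigen and chemokine genes was mixed, with 11 of 17 measured genes lower and 6 higher, 7 and 4 of them by at least 1.5-fold. Of all genes, 49.1% were lower and 50.9% higher, 8.35% and 8.18% by at least 1.5-fold. H2-K1 was at 32.3 CPM in knockout-labelled cells and 89.6 CPM in control cells (0.360, 0.272 to 0.473) and H2-D1 at 50.6 CPM in knockout-labelled cells and 84.2 CPM in control cells. H2-K1 did not pass the filters used for the ranked genes, so its difference is not shown to be particular to these cells. The list's median log2 ratio was -0.27 in cycling ductal, -0.09 in non-cycling ductal and -0.23 in cycling mesenchymal cells. Immediate early and heat shock genes, which dissociation can raise, were lower for 22 of 29 genes, against 49.1% of all genes, with a median of -0.23. Fos was at 1529 CPM in knockout-labelled cells and 1868 CPM in control cells, and Hspa1a had 10 UMIs in knockout-labelled cells and 37 in control cells. Their part in the differences above was not tested.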

How the data were processed

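Single-cell RNA was counted in 2 libraries of embryonic mouse pancreas. The deposited values are raw counts of UMIs per gene and barcode from Cell Ranger 3.0.0, per the file headers. The builds in the submitters' processing notes are GRCm38 and mm10; Seurat (2 and 3) is listed there beside Cell Ranger. A deposited gene table that compares clusters was not used here.

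Cells were chosen by the rule given above, in each library alike. Their UMIs were summed per library and divided by the total, which gives CPM, and the ratio of knockout over control was given an exact conditional binomial 95% interval. Shares have Clopper-Pearson intervals and share ratios Katz intervals. Cells of 1 library are not replicates, so no p-value was computed. Genes with at least 20 UMIs counted as measured, and a 1.5-fold ratio as called. Named genes had at least 100 UMIs and were the 12 furthest each way by the interval bound nearest 1, without haemoglobin, mitochondrial, ribosomal, sex marker and unnamed genes, genes that another class held at over 5 times the level, and genes that moved the same way in mesenchymal cells by 50% or more of the log2 ratio. Of the lists, the most abundant and the furthest genes were named, and others were picked after their values were seen. The classes used for comparison were set by marker limits, acinar cells by the 5 acinar genes at 1.5% of UMIs or more and mesenchymal cells by at least 10 collagen UMIs. The cells and the 28 gene lists were chosen with earlier results of these data known. The calculation was tested on simulated data. Promoters are RefSeq sequences of GRCm38.p6. Free RNA gives UMIs of other cells' genes in any barcode and was not removed. Depth was 33048640 UMIs in the library labelled knockout and 25398522 in the control library. The tools were scanpy 1.11.5 (for Scrublet, with exact neighbours), SciPy 1.17.1, NumPy 2.4.6, matplotlib 3.10.9 and pandas 2.3.3 in Python 3.11.15. A gene withheld for evaluation is not reported here.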

Additional observations from a re-analysis of the deposited data

Results flagged for a closer look

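The medians of the S phase, G2 and M phase, ductal identity and TrxG complex lists had opposite signs in cycling ductal and cycling mesenchymal cells of the same libraries, as did those of some other lists. These differences were not tested, since each effect rests on 1 library per group. The G2 and M phase median log2 ratio, knockout over control, was -0.29 in cycling ductal cells and 0.08 in cycling mesenchymal cells, and the S phase median was 0.21 in cycling ductal cells and -0.03 in cycling mesenchymal cells. The ductal identity median was -0.45 in cycling ductal cells and 0.04 in cycling mesenchymal cells, and the TrxG complex median was 0.09 in cycling ductal cells and -0.05 in cycling mesenchymal cells. In non-cycling ductal cells the S phase, ductal identity and TrxG complex medians had the same sign as in cycling ones, at 0.13, -0.28 and 0.14. The G2 and M phase median there was 0.06.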

How the results depend on the processing

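No paired analysis was possible because each group is 1 library. The ratio of cycling shares among duct cells lay between 1.22 and 1.39, that among kept cells between 0.757 and 0.923, and that of S-rich shares between 1.19 and 1.66 over all alternatives run. The ductal identity median stayed between -0.47 and -0.37, the G2 and M phase median between -0.33 and -0.18, and the S phase median between 0.11 and 0.53. The G2 and M phase median was -0.18 with acinar genes under 0.5% of UMIs. Thinned to 2000 UMIs with at least 1 or at least 2 cycling UMIs, the S phase median was 0.53 or 0.34 and the TrxG complex median -0.04 or -0.02, over as few as 14 and 4 genes. Of all measured genes, 821 were at least 1.5-fold higher and 838 lower. These counts were 465 and 413, or 367 and 343, after thinning with 1 or 2 cycling UMIs, 388 and 452 with at least 50 UMIs, and 1635 and 1705 with at least 1 UMI in each library; these settings test other numbers of genes. Of the 24 named genes, 0 remained without the filters on other cell types. Leaving out the haemoglobin-rich and Sst-rich cells, or the Rbpjl-rich cells, was chosen after seeing the data and gave G2 and M phase medians of -0.33 and -0.22. Scrublet marked 34 of 3257 kept barcodes in the library labelled knockout and 26 of 2633 in the control library. Genes under 20 UMIs and S-rich shares were limited by depth and cell number, and every comparison of the groups by 1 library per group.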
